A study of Glycine max with 2 samples.

Results

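SCS1 (Glyma.06G022600), the seed coat subtilisin gene of soybean, was followed across all nuclei of a Multiome experiment, in which RNA and open chromatin are read from the same nucleus. It is 1 of 56044 genes in the RNA matrix and was found by its identifier. The nuclei came from a pool of cotyledon-stage seeds of Glycine max cv Williams 82, untreated, with 1 RNA and 1 ATAC library. SCS1 was detected in 1624 of 8636 nuclei, and these nuclei were compared with 3450 nuclei that held RNA of SCB1 (Glyma.07G176700) without SCS1. Because there was 1 library, nuclei are not replicates, and every interval below covers counting error only.

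Subtilisins are serine proteases that are mostly secreted and cut proteins outside the cell or in its wall. The soybean seed coat grows from the integuments of the ovule, and its parenchyma passes sugars and amino acids from the mother plant to the embryo. SCB1 is a seed coat protein with a BURP domain, and both genes are known as markers of seed coat parenchyma, SCS1 of the thick-walled layer.

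SCS1 RNA was abundant overall but held by few nuclei. Its 28969 UMIs made it the 28th most abundant gene, at 726 UMIs per 1000000 UMIs, or CPM (95% Poisson interval 718 to 735). SCB1 ranked 2nd, with 87202 UMIs in 4877 nuclei. The share of nuclei with an SCS1 UMI was 18.8% (95% exact binomial interval 17.99 to 19.6).

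Levels in positive nuclei covered a wide range. The lowest had 1 SCS1 UMI, the median 4 and the highest 912. A single UMI was found in 438 nuclei, and 880 nuclei had 5 or fewer. The 486 nuclei with 16 or more UMIs held 85.0%. The 87 nuclei at the top, about 1% of all nuclei, held 42.7%. The highest nucleus belonged to cluster sn0 and had 25632 UMIs in total, and a second sn0 nucleus reached 51906 CPM with 749 SCS1 UMIs. Nuclei with 1 UMI were the most frequent kind of positive nucleus and held 1.51% of SCS1 UMIs.

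**Figure D1:**
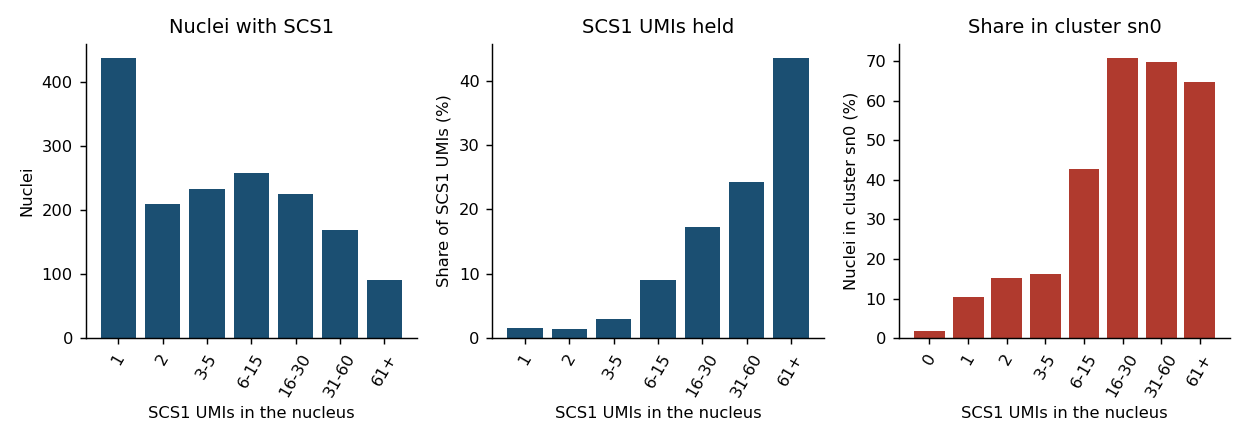
Nuclei by the number of SCS1 UMIs they held: nuclei per bin (left), share of all SCS1 UMIs per bin in percent (middle), and share of nuclei in cluster sn0 in percent (right, bin of 0 UMIs included). The share in sn0 was 1.93% at 0 UMIs, 10.3% at 1 UMI and 70.8% at 16 to 30 UMIs.

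The matrix also stores entries equal to 0. SCS1 had 4231 of them among 5855 stored entries (72.3%), against a median of 16.3% over the 19546 genes with at least 500 entries, and ranked 37th among those genes. SCB1 stood at 42.2%. Of the SCB1-alone nuclei, 2153 (62.4%) stored an SCS1 entry of 0. Counts before the authors' background correction were not analysed here, and the part of these entries in the split between the groups was not tested.

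The nuclei fell into 21 clusters made without SCS1 and SCB1. Cluster sn0 held 64.4% of SCS1 UMIs and 562 of the SCS1 nuclei. Its level was 6126 CPM (6038 to 6214), and 80.6% of its 697 nuclei had an SCS1 UMI. Of the outer integument markers, 14 of 17 met the marker rule in sn0, 11 of 17 in each of sn5a and sn19, and 4 of 17 in sn17, and these 4 clusters were named outer integument-like. Cluster sn1 also had 4 of 17, but 3 of 11 vascular markers, a larger share, and was named vascular-like. The names of sn17 and sn1 thus rest on few markers. The study mapped sn17 to several seed coat subregions and left its nature unclear. It assigned sn1 to the seed coat parenchyma of the outer integument and linked vascular tissue to sn6a and sn6b instead. In SCS1 nuclei, vascular markers summed to 1324 CPM in sn1 and 6829 CPM in sn6b. Outer integument markers summed to 13253 CPM in those of sn1. To meet the rule, a marker had to be detected in 10% of a cluster's nuclei or more, and its mean had to reach 2 times the mean over all remaining nuclei.

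The next clusters were far lower. SCS1 stood at 2046 CPM (1965 to 2130) in sn17, 1097 (1056 to 1138) in sn5a, 1070 (995 to 1150) in sn8 and 984 (920 to 1052) in sn19. The intervals of sn5a and sn8, and those of sn8 and sn19, overlapped. The first 5 clusters together held 87.7% of SCS1 UMIs. In sn17, 670 of the 2378 SCS1 UMIs came from 1 nucleus. The other clusters lay at 305 CPM or below, and 13 of the neighbouring pairs in the order of levels had intervals that overlapped.

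The 3 seed coat epidermis-like clusters differed. In sn3, where 12 of 12 epidermis markers met the rule, 70 of 624 nuclei (11.2%) had an SCS1 UMI, at 144 CPM and a median depth of 1976 UMIs per nucleus. No SCS1 UMI was found in the 308 nuclei of sn13, at a median of 3989 UMIs, or in the 163 nuclei of sn20, at 2880. The median in sn0 was 3134 UMIs. A count of 0 allows a share of nuclei with an SCS1 UMI of up to 0.974% in sn13 and 1.84% in sn20 by the floor of 3 counts, and of up to 1.19% and 2.24% by the exact binomial interval. These limits do not cover nuclei that express the gene without a UMI. The counts had been corrected for free RNA, and 65.6% of sn13 nuclei and 57.1% of sn20 nuclei stored an SCS1 entry of 0, so their 0% is not a measure of free RNA. With every nucleus thinned to 500 UMIs, the share with SCS1 was 67.5% in sn0, 28.7% in sn8, 27.7% in sn17, 19.4% in sn19, 16.8% in sn5a, 5.15% in sn3 and 0% in sn13 and sn20.

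**Figure D2:**
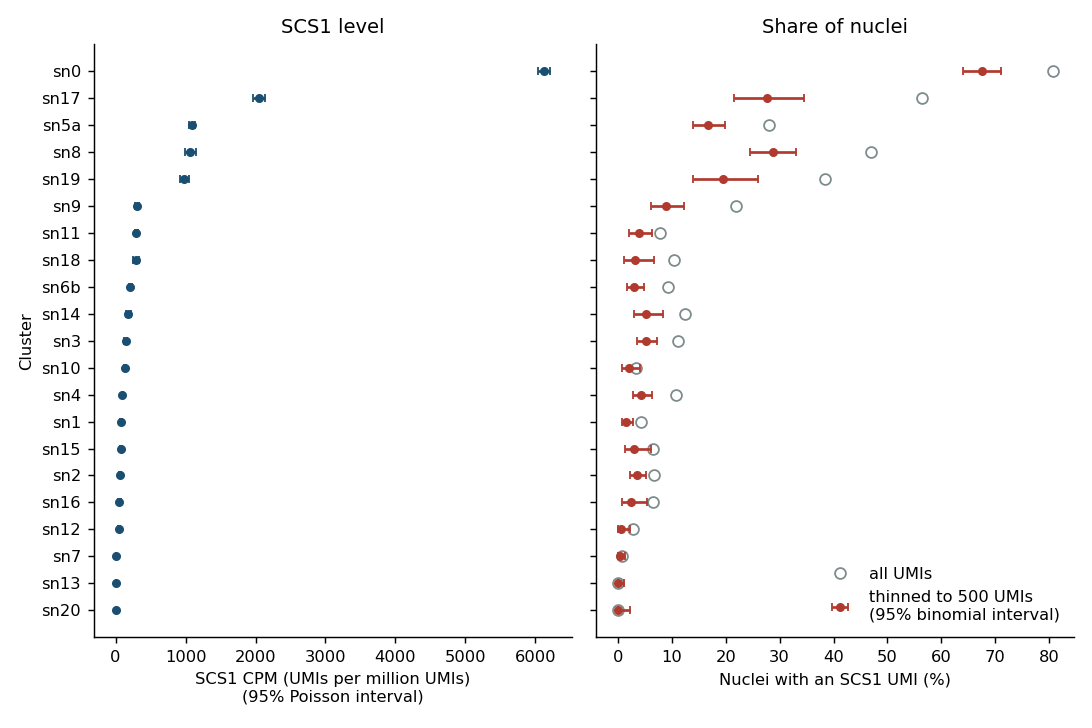
SCS1 level in CPM with 95% Poisson intervals (left) and the share of nuclei with an SCS1 UMI in percent (right), by cluster in order of level; open circles use all UMIs and filled circles use 500 UMIs per nucleus with 95% exact binomial intervals. Cluster sn0 stood at 6126 CPM, and sn17 followed at 2046 CPM.

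SCS1 was not uniform inside sn0. The median nucleus of sn0 had 4393 CPM, the lower quartile 502 and the upper quartile 8471, and 135 of the 697 nuclei had no SCS1 UMI. Of these, 126 held SCB1. The depth of these 126 nuclei, a median of 2853 UMIs, was near the 3186.5 UMIs of the 562 SCS1 nuclei of sn0. An SCS1 entry of 0 was stored in 57.1% of the 126 nuclei, and in 10.9% of all sn0 nuclei. Whether the nuclei with such an entry lacked SCS1 RNA before the background correction was not tested.

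Outside the 5 clusters with the highest levels lay 480 of the 1624 SCS1 nuclei. The endothelium-like cluster sn9 had SCS1 in 84 of 383 nuclei (21.9%), and the inner integument-like cluster sn14 in 36 of 288 (12.5%). In sn11, an endosperm-like cluster, 28 of 362 nuclei were positive, with a median of 18.5 SCS1 UMIs. Their outer integument markers summed to 8582 CPM (8258 to 8916), against 3544 CPM (3423 to 3668) in the 115 SCB1-alone nuclei of sn11, and their embryo markers to 724 CPM (632 to 825), against 189 CPM (161 to 219). Their epidermis markers summed to 91.3 CPM (60.6 to 132), against 229 CPM (199 to 262). Their median Scrublet score was 0.108 against 0.0526. Their median depth was 9100.5 UMIs, against 5747. The part of doublets in these values was not tested.

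SCS1 usually came with SCB1. Both RNAs were found in 1427 nuclei, which held 27833 of the SCS1 UMIs, and SCB1 stood at 6631 CPM (6566 to 6696) there, against 3061 CPM (3033 to 3089) in the SCB1-alone nuclei. SCS1 without SCB1 was found in 197 nuclei at 1977 CPM of SCS1. Of these 197 nuclei, 186 stored an SCB1 entry of 0, and their median depth was 1860 UMIs, against 2702.5 in the SCB1-alone nuclei. Their outer integument markers summed to 5382 CPM, against 18011 CPM in nuclei with both RNAs and 7325 CPM with SCB1 alone. Other markers summed higher in them than in nuclei with both RNAs: endothelium 133 against 29.3 CPM, epidermis 645 against 243 and embryo 586 against 299. The 197 nuclei were spread over clusters, with 30 in sn3 and 29 in each of sn0 and sn9. The share of nuclei with SCB1 was 49.2% at 0 SCS1 UMIs, 77.2% at 1 and 98.9% at 61 or more.

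Across all 8636 nuclei, 41 of 25987 genes correlated with SCS1 at r of 0.3 or more, and the 99th percentile of r was 0.16. The points share 1 library and its depth, so these values are a description. Glyma.18G135000, of unknown function, stood first (r = 0.58). SCPL20 (Glyma.09G249500, r = 0.56) and SCPL45 (Glyma.03G125400, r = 0.47) are serine carboxypeptidase-like proteins. AG (Glyma.08G120600, r = 0.50) is a MADS-box transcription factor that sets carpel and ovule identity in Arabidopsis. ARAF1 (Glyma.19G124600, r = 0.47) removes arabinose from wall polysaccharides, TBL19 (Glyma.19G041700, r = 0.46) belongs to a family that acetylates them, and BGAL8 (Glyma.12G173700, r = 0.42) is a beta-galactosidase. PTR1 (Glyma.07G145900, r = 0.42) carries peptides. SUM2 (Glyma.08G111700, r = 0.40) is a small ubiquitin-like modifier, SCB1 itself had r = 0.40, Glyma.08G182500 (r = 0.39) is an EamA-like transporter, and the subtilisin gene Glyma.04G022500 closed the first 12 (r = 0.39).

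The lowest correlations were weak. CHS (Glyma.01G228700, r = -0.16), chalcone synthase, makes the first flavonoid. Glyma.09G084300 (r = -0.16) has no description in the annotation used. TT8 (Glyma.10G026000, r = -0.15) and TTG2 (Glyma.03G176600, r = -0.15) are regulators of seed coat flavonoids in Arabidopsis. Values of this size in sparse counts are not a finding.

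The first 12 fell apart inside sn0, over 697 nuclei. Glyma.18G135000 (r = 0.52), TBL19 (r = 0.51), AG (r = 0.41), Glyma.04G022500 (r = 0.38) and PTR1 (r = 0.33) kept a positive r. ARAF1 (r = 0.01), SCB1 (r = 0.02) and SCPL45 (r = 0.06) were near 0. Glyma.08G182500 was negative (r = -0.26). BGAL8 was slightly negative (r = -0.08), and SCPL20 (r = 0.28) and SUM2 (r = 0.18) lay between.

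Nuclei with more SCS1 had more of several of these RNAs, which follows from their choice by correlation over the same nuclei. Levels over bins of SCS1 UMIs give the size of the difference only. Glyma.18G135000 stood at 19.6 CPM in nuclei with no SCS1 UMI, 105 CPM at 1 UMI and 891 CPM at 31 to 60. AG stood at 21.2, 86.5 and 485 CPM in the same bins. SCPL20 stood at 106 CPM at 0, 467 CPM at 1 and 2699 CPM at 61 or more SCS1 UMIs, its highest bin. BGAL8 stood at 762 CPM at 0, 1858 CPM at 1, 3845 CPM at 16 to 30 and 4157 CPM at 61 or more, so it differed little over the upper bins. CHS ran the other way, with 627 CPM at 0, 227 CPM at 1 and 97.0 CPM at 31 to 60 SCS1 UMIs, and 209 CPM at 61 or more. The median depth also differed, with 1857 UMIs at 1 SCS1 UMI and 8895 at 61 or more. The share of nuclei in sn0 differed too, at 1.93% at 0 SCS1 UMIs, 10.3% at 1 and 64.8% at 61 or more. The part of depth and of sn0 was not tested.

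**Figure D3:**
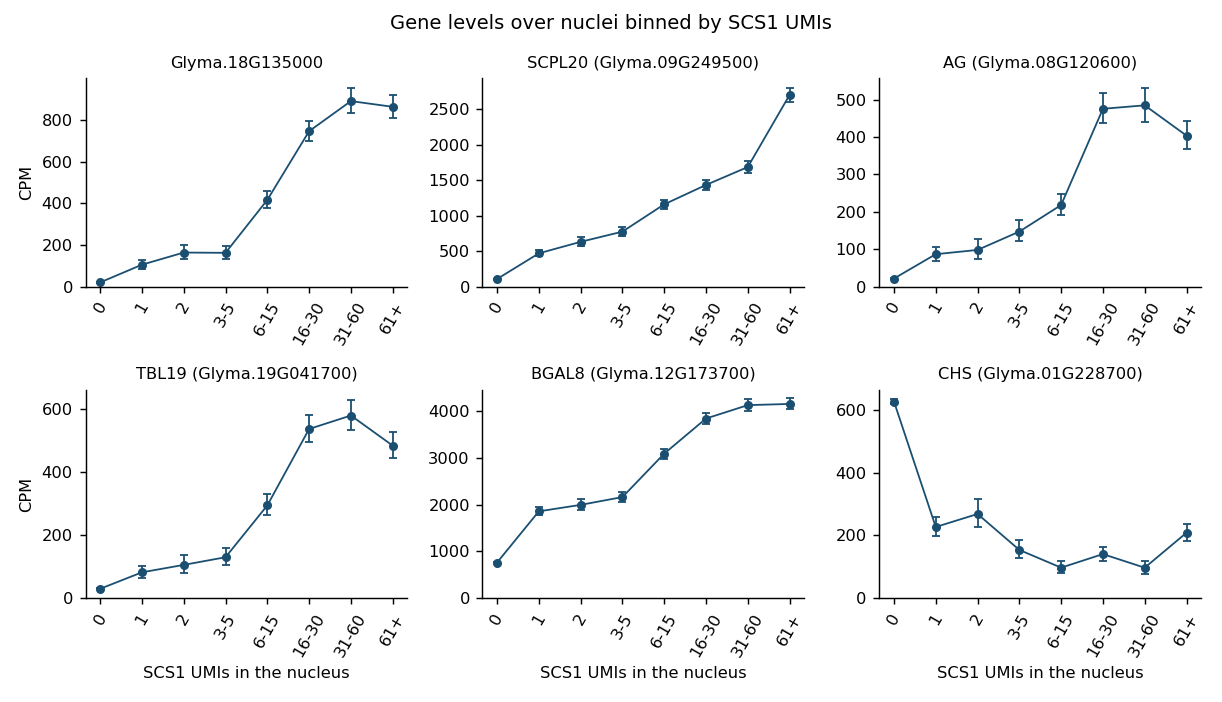
Levels of 6 genes in CPM (y axes) over nuclei binned by SCS1 UMIs (x axes), with 95% Poisson intervals. The genes are among those named for their high or low correlation with SCS1 over the same nuclei. Glyma.18G135000, AG and TBL19 were highest in the bin of 31 to 60 SCS1 UMIs, SCPL20 in the bin of 61 or more, and CHS in the bin of 0.

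The main comparison asked how SCS1 nuclei differ from nuclei with SCB1 alone. Of 10428 genes tested, 296 (2.84%) stood at least 2 times higher in SCS1 nuclei and 170 (1.63%) at least 2 times lower. The median ratio was 0.991. As a mean over nuclei of counts per 10000, 200 genes were higher and 65 lower, so the higher side took a larger share of the calls. With a minimum of 20 UMIs and no detection filter the balance turned, with 968 higher and 2009 lower. That setting admits genes with few UMIs, and the part of counting error in the turn was not tested. Settings that change the nuclei or the filter also change how many genes are tested, so their counts cannot be compared as shares. Without the SCB1-alone nuclei that store an SCS1 entry of 0, the counts were 244 and 63, and without sn0, a setting chosen after seeing the data, they were 110 and 37. The depth of the groups was alike, at a median of 2778.5 UMIs in SCS1 nuclei and 2702.5 in SCB1-alone nuclei. Their cluster makeup was not: sn0 gave 34.6% of the SCS1 nuclei and 3.65% of the SCB1-alone nuclei. With clusters weighted equally, 39 genes were called higher and 2 lower.

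Among the genes tested, another subtilisin gene and Glyma.06G275300 had the highest ratios, and their intervals overlapped. The subtilisin gene Glyma.04G022500, which has the same best Arabidopsis match as SCS1, stood at 111 CPM in SCS1 nuclei and 3.29 CPM in SCB1-alone nuclei, a ratio of 33.7 (25.3 to 45.8). It was found in 336 nuclei, of which 264 (78.6%) also held SCS1, and 735 of its 813 UMIs lay in SCS1 nuclei. Of these 735 UMIs, 83 came from 1 sn0 nucleus of 14430 UMIs in total, which held 749 SCS1 UMIs. SCS1 had 32.3 UMIs for each UMI of Glyma.04G022500 in sn0, 29.8 in sn5a, 27.6 in sn8, 103 in sn17 and 175 in sn19. The last 2 rest on 23 and 5 UMIs of Glyma.04G022500. Whether the 2 genes share reads was not tested, so the level of each is uncertain to that extent.

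The other subtilisins were mixed. The AIR3 match Glyma.05G152200 was called higher, at 158 CPM in SCS1 nuclei and 20.1 CPM in SCB1-alone nuclei (ratio 7.86, 6.92 to 8.96). The AIR3 matches Glyma.08G109000 and Glyma.14G048200 had ratios of 1.93 and 1.91 and were not called. Glyma.18G250700, with a ratio of 0.743, did not pass the detection filter. AIR3 is a subtilisin found in Arabidopsis at sites of lateral root emergence. Both called genes passed the detection filter only through SCS1 nuclei. Glyma.04G022500 was detected in 16.3% of SCS1 nuclei and 1.36% of SCB1-alone nuclei, and Glyma.05G152200 in 21.3% and 4.99%.

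Below Glyma.04G022500, the ratios of Glyma.06G275300 (30.5, 24.2 to 38.9), Glyma.06G265700 (19.4), Glyma.04G042200 (17.9), Glyma.18G135000 (17.2), Glyma.16G107600 (15.9), Glyma.09G249600 (10.4), Glyma.08G193900 (9.44) and Glyma.18G242900 (8.92) belonged to genes with no known role in the annotation used. For Glyma.06G275300, 282 of its 1038 UMIs in SCS1 nuclei came from 1 nucleus of sn17. IBR1 (Glyma.09G008900), which in Arabidopsis helps to turn indole-3-butyric acid into auxin, stood at 73.8 CPM in SCS1 nuclei and 5.86 CPM in SCB1-alone nuclei (ratio 12.6, 10.0 to 16.0). INT2 (Glyma.09G087400), an inositol transporter, stood at 127 and 12.8 CPM (ratio 9.98, 8.53 to 11.7). TBL19 stood at 342 and 36.6 CPM (ratio 9.33, 8.50 to 10.3). All the genes named here below Glyma.04G022500 passed the detection filter only through SCS1 nuclei. In SCB1-alone nuclei their detection ran from 1.30% (Glyma.04G042200) to 8.64% (TBL19). The same held for PTR1 (26.5% of SCS1 nuclei and 5.16% of SCB1-alone nuclei) and AG (36.7% and 8.17%).

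Wall enzymes were mostly higher in SCS1 nuclei. Of 23 members tested, 18 were called higher and 0 lower, and the list median was 2.33. Over all genes tested, 2.84% were called higher and 1.63% lower, and the median was 0.991. The other lists have the same background. All came from tables the study made on these nuclei, so their direction is not independent evidence. Some genes stand in more than 1 list, so the lists are not independent of each other either. ARAF1 stood at 2815 CPM in SCS1 nuclei and 799 CPM in SCB1-alone nuclei (ratio 3.52, 3.44 to 3.60). BGAL8 stood at 3166 and 1354 CPM (ratio 2.34). BGLU44 (Glyma.09G178100), a beta-glucosidase and the member with most UMIs, stood at 4022 and 2542 CPM (ratio 1.58) and was not called. GAUT15 (Glyma.08G309900), a galacturonosyltransferase, had the lowest ratio, 1.41.

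Other peptidases had 7 of 9 members called higher, with a median of 2.21. SCPL20 stood at 1348 CPM in SCS1 nuclei and 196 CPM in SCB1-alone nuclei (ratio 6.87, 6.59 to 7.16), and SCPL45 at 1057 and 226 CPM (ratio 4.68, 4.49 to 4.88). SCPL51 (Glyma.11G191200, ratio 1.55) and SCPL40 (Glyma.09G226700, ratio 1.64) were not called.

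In the list of sugar transport and use, 7 of 11 tested members were called higher, with a median of 2.25. SWEET10b (Glyma.08G183500), a sugar exporter of the thick-walled parenchyma, stood at 263 CPM in SCS1 nuclei and 117 CPM in SCB1-alone nuclei (ratio 2.25, 2.10 to 2.40). For SWEET10b, 133 of its 1743 UMIs in SCS1 nuclei came from 1 nucleus of sn17. Its close copy SWEET10a (Glyma.15G049200) had 39 and 15 UMIs and was not tested. SUS4 (Glyma.15G182600), a sucrose synthase, had a ratio of 2.41, and SWEET13 (Glyma.05G202700), a sucrose exporter of the phloem, one of 1.12. In that of nitrogen transport and use, 14 of 17 were called higher, with a median of 2.86. PTR1 had the highest ratio of the list (8.67, 7.51 to 10.0) and SHM1 (Glyma.09G202000), a serine hydroxymethyltransferase, the lowest (1.13).

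Ion pumps and exchangers had 4 of 7 members called higher. NIP1;2 (Glyma.08G120100), an aquaporin-like channel, had a ratio of 3.80. ACA8 (Glyma.09G061200), a calcium pump, had a ratio of 1.97 and CAX3 (Glyma.18G200500), a cation exchanger, of 1.66, and neither was called. Of 10 transcription factors, 6 were called higher. AG stood at 295 CPM in SCS1 nuclei and 33.2 CPM in SCB1-alone nuclei (ratio 8.88, 8.05 to 9.81), whereas SHP2 (Glyma.14G019400), a close relative of AG, had a ratio of 1.52.

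**Figure D4:**
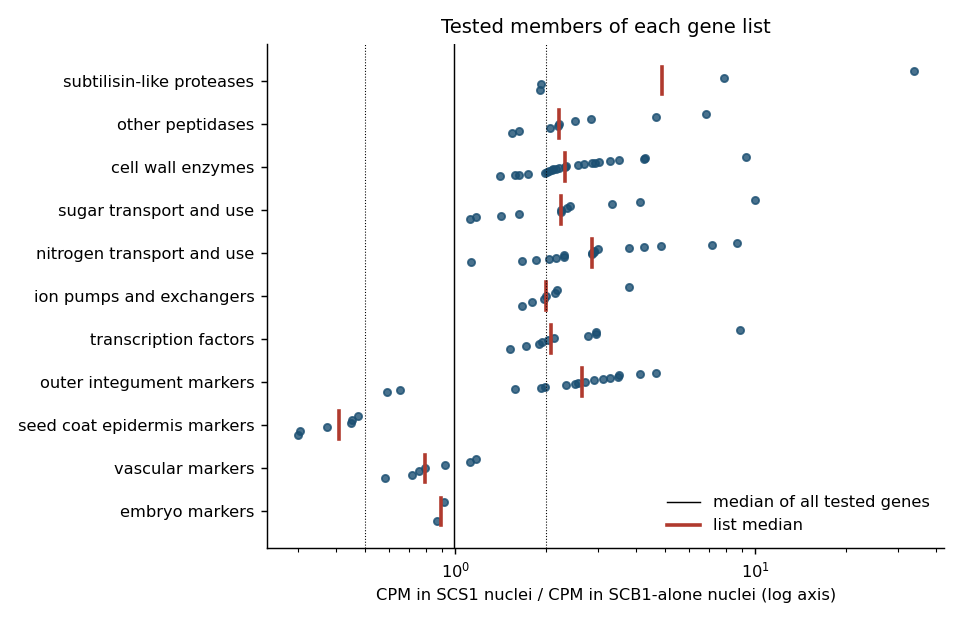
Ratio of CPM in SCS1 nuclei to CPM in SCB1-alone nuclei (log axis) for every tested member of each list, with medians over tested members in red and members that did not pass the filter not drawn; the solid line is the median over all tested genes and the dotted lines are ratios of 0.5 and 2. The nitrogen list had a median of 2.86 and the seed coat epidermis markers one of 0.41.

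Of the layer markers, those of the outer integument were mostly higher and those of the epidermis lower. Outer integument markers had 11 of 16 tested members called higher, and their summed level was 16917 CPM in SCS1 nuclei and 7325 CPM in SCB1-alone nuclei. LOX1 (Glyma.13G347800), a lipoxygenase, went against them, with a ratio of 0.594. Most of the outer integument markers called higher also stand in other lists, so these counts are not separate results. ARAF1, BGAL8, BGAL6 (Glyma.04G208400) and BXL1 (Glyma.15G143700) are also wall enzymes. SCPL45 and Glyma.02G213000 are also in the peptidase list, SWEET5 (Glyma.19G009900) in the sugar list and Glyma.05G215600 in the nitrogen list. Of 12 seed coat epidermis markers, 6 were tested and all 6 were called lower. The list summed to 278 CPM in SCS1 nuclei and 703 CPM in SCB1-alone nuclei. Glyma.05G196200, MYB5 and SPL13 passed the detection filter only through SCB1-alone nuclei, at 14.8%, 10.9% and 13.1%. They were detected in 6.03%, 4.31% and 8.19% of SCS1 nuclei, so the filter had a part in which markers were tested. None of 7 tested vascular markers and none of 2 tested embryo markers were called, with sums of 690 and 810 CPM for vascular and 324 and 393 CPM for embryo markers. At equal weight of the 14 clusters with at least 20 nuclei of each group, 39 genes were called higher and 2 lower. Over all nuclei, 296 and 170 were called. Beyond this and the values within clusters given next, the part of cluster makeup in the ratios was not tested.

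The 12 lowest ratios ran from 0.269 to 0.311. Except for CHS and GASA1, detected in 12.9% and 10.5% of SCS1 nuclei, these genes passed the detection filter only through SCB1-alone nuclei. CHS stood at 165 CPM in SCS1 nuclei and 570 CPM in SCB1-alone nuclei (ratio 0.289, 0.271 to 0.308). Of its 1091 UMIs in SCS1 nuclei, 152 came from 1 nucleus of sn4. TT12 (Glyma.14G032400), a transporter that loads flavonoids into the vacuole, had a ratio of 0.2999. MYB5 (Glyma.05G061900), a regulator of seed coat differentiation in Arabidopsis, had a ratio of 0.299. CKX3 (Glyma.17G054500), which breaks down cytokinins, had a ratio of 0.288, ECA3 (Glyma.05G175300), a calcium pump, of 0.292, and GASA1 (Glyma.19G013000), a gibberellin-responsive peptide gene, of 0.311. Glyma.04G079100 was lowest of all (0.269, 0.219 to 0.328), followed by Glyma.13G215100 (0.281). Glyma.17G066300, Glyma.05G196200, Glyma.14G205200 and Glyma.15G262300 lay between 0.303 and 0.307. TT8 (0.385) and TTG2 (0.414), named for their low correlation, were not among the 12.

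Within sn0, the summed level of outer integument markers was not higher in SCS1 nuclei, and that of epidermis markers was lower, as it was over all nuclei. The 562 SCS1 nuclei and the 126 SCB1-alone nuclei had nearly equal SCB1, at 7404 and 7380 CPM, and outer integument markers summed to 27959 CPM in SCS1 nuclei and 30499 CPM in SCB1-alone nuclei. Epidermis markers summed to 75.9 CPM (65.3 to 87.7) in SCS1 nuclei and 187.8 CPM (153.7 to 227.1) in SCB1-alone nuclei, and none of them had enough UMIs or detection to be tested singly. Of 8286 genes tested, 278 (3.36%) were called higher in SCS1 nuclei and 118 (1.42%) lower, and 88 and 7 of these were also called over all nuclei. In sn17, 54 of 1597 genes (3.38%) were called higher and 33 (2.07%) lower, and in sn5a 103 of 6499 (1.58%) and 83 (1.28%). In sn8, where depth was lowest, 1 gene was called in each direction of 917 tested (0.109%). Marker sums of SCS1 nuclei against SCB1-alone nuclei differed between clusters. Outer integument sums were higher in SCS1 nuclei of sn17 (10893 against 7473 CPM), sn8 (8699 against 6974) and sn19 (21306 against 16671). In sn5a they were lower (16794 against 17594). Epidermis sums were lower in SCS1 nuclei of sn17 (312 against 426 CPM), sn5a (188 against 230) and sn19 (82.8 against 154). In sn8 they were higher (232 against 185).

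Some genes kept their difference within sn0. Glyma.04G022500 stood at 238 CPM in SCS1 nuclei and 3.54 CPM in SCB1-alone nuclei, where it rests on 2 UMIs (ratio 67.1, 18.5 to 555). INT2 stood at 254 and 14.2 CPM (ratio 17.9, 9.03 to 41.7), TBL19 at 672 and 88.6 CPM (ratio 7.59, 5.73 to 10.3) and the AIR3 match Glyma.05G152200 at 286 and 49.6 CPM (ratio 5.76, 3.95 to 8.74). Glyma.18G135000 had a ratio of 5.46 (4.50 to 6.70), PTR1 of 3.35 (2.49 to 4.61) and AG of 3.23 (2.65 to 3.97). ACA8, not called over all nuclei, stood at 1110 CPM in SCS1 nuclei and 407 CPM in SCB1-alone nuclei of sn0 (ratio 2.72, 2.38 to 3.13).

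Other genes were no longer called. SCPL45 had a ratio of 0.977 (0.915 to 1.04) within sn0, SUS4 of 0.975 (0.917 to 1.04), and BGAL8 of 0.923 (0.889 to 0.958). ARAF1, at 1.13 (1.08 to 1.18), and SCPL20, at 1.59 (1.48 to 1.71), fell short of a ratio of 2 with intervals above 1. SWEET10b had a ratio of 1.64 (1.28 to 2.13) and NIP1;2 of 0.913 (0.785 to 1.07). Glyma.08G182500, 2.90 over all nuclei, had a ratio of 0.671 (0.628 to 0.717). SHM1 stood at 384 CPM in SCS1 nuclei and 1345 CPM in SCB1-alone nuclei of sn0 (ratio 0.285, 0.259 to 0.314), and was called lower. Within sn0, where 3.36% of all genes tested were called higher and 1.42% lower, 4 of 23 wall enzymes, 5 of 17 nitrogen genes (2 lower), 1 of 9 sugar genes (1 lower), 1 of 7 ion pumps and exchangers, 1 of 10 transcription factors, 1 of 16 outer integument markers and 0 of 9 other peptidases were called higher. Lists of 7 to 16 genes with 0 or 1 call are too small to be read against that share. Both subtilisin genes called over all nuclei were also called in sn0.

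**Figure D5:**
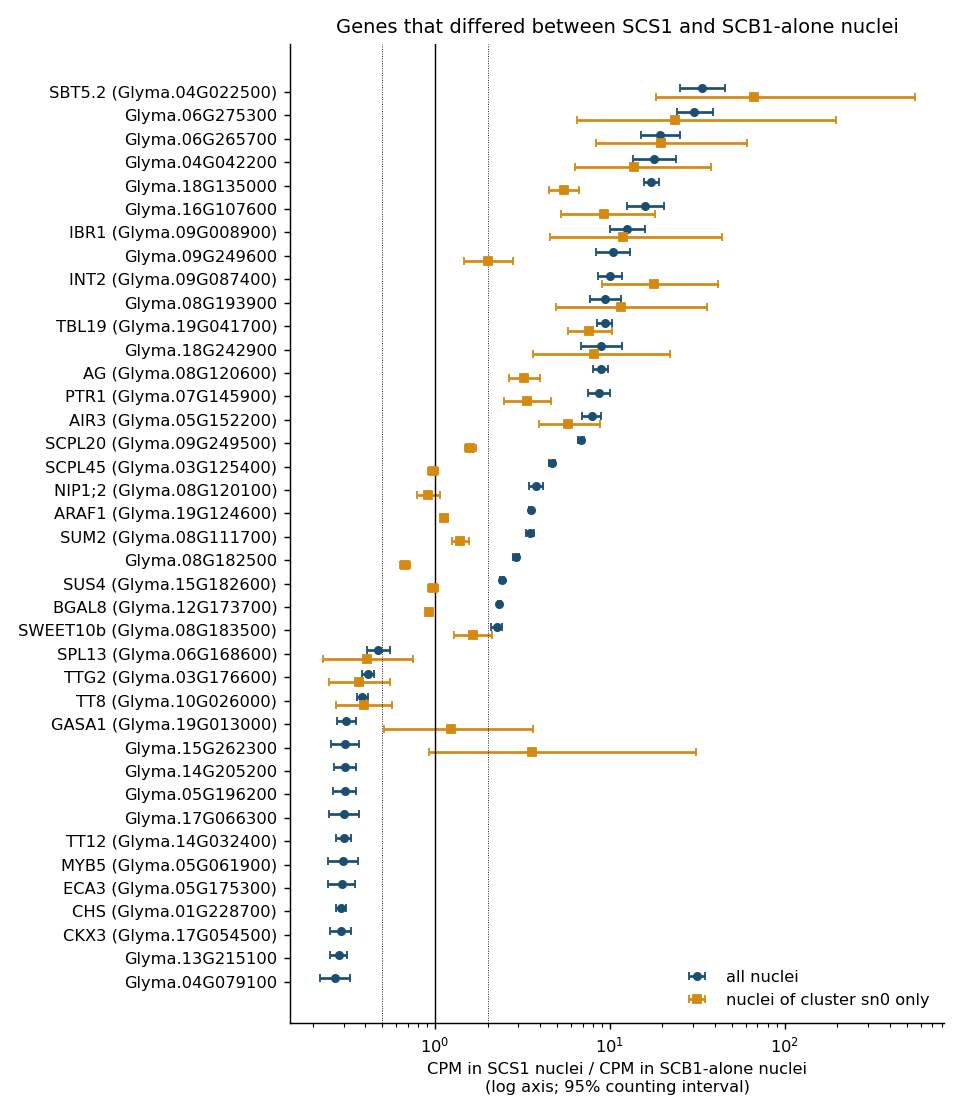
Ratio of CPM in SCS1 nuclei to CPM in SCB1-alone nuclei (log axis) with 95% counting intervals, for the named genes called over all nuclei; circles are all nuclei and squares are nuclei of sn0 where the gene had at least 20 UMIs. BGAL8 had a ratio of 2.34 over all nuclei and 0.923 in sn0, and TBL19 one of 9.33 and 7.59.

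Across clusters with at least 20 nuclei of each group, 14 in number, some genes held their direction widely. The genes given here were named for their ratios or correlations over the same nuclei, so their direction across clusters is not independent evidence. SCPL20 was above 1 in 14 of 14 clusters, with every interval above 1 and ratios from 1.41 to 5.83. ARAF1 was above 1 in 14 clusters, 13 of them with the interval above 1. Among clusters with at least 20 UMIs of the gene, Glyma.18G135000 was above 1 in 10 of 10, TBL19 in 9 of 9, AG in 8 of 8 and INT2 in 6 of 6. TT8 was above 1 in 5 of 13 clusters, with 5 intervals below 1 and 0 above. With all 14 clusters weighted equally, 39 genes were called higher and 2 lower, all of them among the genes called over all nuclei.

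Open chromatin was read in the same nuclei, at a median of 6981 fragments in SCS1 nuclei and 6824.5 in SCB1-alone nuclei. Of 78654 peaks with at least 100 overlapping fragments, 512 (0.651%) stood at least 2 times higher in SCS1 nuclei and 217 (0.276%) at least 2 times lower. The highest ratio was that of a peak on chromosome 7 (8177751 to 8178579, Wm82.a2.v1), with 74 fragments in SCS1 nuclei and 30 in SCB1-alone nuclei (ratio 5.04, 3.25 to 7.98). Within sn0 it had 42 fragments in SCS1 nuclei and 4 in SCB1-alone nuclei (ratio 2.24, 0.813 to 8.61), within sn5a 14 and 6 (ratio 4.34, 1.57 to 13.8), and within sn17 2 and 0. The lowest was on chromosome 5 (5101376 to 5102039), with 9 and 96 fragments (ratio 0.191, 0.0849 to 0.379). It had 1 fragment in each group within sn0, and 2 and 7 within sn5a (ratio 0.531, 0.0538 to 2.79). The genes near these peaks were not analysed here.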

How the data were processed

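One Multiome RNA library and 1 ATAC library were made from nuclei of a pool of soybean cotyledon-stage seeds, with 10000 nuclei loaded per the labels. The authors processed reads with Cell Ranger ARC (1.0) and removed background RNA with SoupX. They deposited UMI counts, whole numbers after that correction, for nuclei already filtered, and fragment counts and peaks for the ATAC library, on Wm82.a2.v1. The RNA matrix held 8636 nuclei and 56044 genes. Median depth was 2945.5 UMIs (range 199 to 111060), and a median of 7840 fragments was found per nucleus.

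SCS1 nuclei had at least 1 SCS1 UMI. SCB1-alone nuclei had 0 SCS1 UMIs and at least 1 SCB1 UMI. UMIs were summed per group and scaled to CPM (UMIs per 1000000 UMIs), with SCS1 and SCB1 left out of sums and totals. A gene was called at a CPM ratio of at least 2 or at most 0.5, with at least 100 UMIs in both groups together and detection in 10% of nuclei of the higher group. A group at 0 was set to a floor of 3 UMIs. With 1 library per assay no replicate test exists, so p-values were not computed. Poisson, binomial and conditional binomial intervals (95%, exact) cover counting error only. Nuclei were clustered with Seurat 5.3.0 (R 4.3.3, SCTransform, 30 components, resolution 1) after SCS1 and SCB1 had been removed, and clusters were numbered by their closest average profile in the study. The 21 clusters were fewer than the study's, and none was numbered sn5b or sn6a. The weakest profile matches were those of sn6b (r = 0.919) and sn5a (r = 0.964), so these 2 may differ from the study's clusters of the same name. Scrublet called 0 doublets and so had not worked; the 6% of nuclei with the highest scores were left out as an alternative. Correlations were Pearson's r of log(1 + counts per 10000) across nuclei, for genes in at least 2% of nuclei. Python 3.11.15, numpy 2.4.6 and scipy 1.17.1 were used, and the rule of size was tested on simulated data.

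Genes were named by rule: SCS1, SCB1, the SWEET10 genes, the 12 highest and 4 lowest correlations, the 12 highest and 12 lowest ratios, the subtilisin-like genes, and 3 members of each list. SCS1 and the gene lists were chosen with earlier results of these data known. The lists came from tables that the study made on these nuclei, so they are not independent evidence of direction. Gene names are those of the best Arabidopsis match in the study's annotation. The gene table given as reference describes no further subtilisin. Gene positions and sequences were not used here.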

Additional observations from a re-analysis of the deposited data

How the results depend on the processing

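No paired analysis was possible because each assay had 1 library and no groups of samples were tested. The share of nuclei with SCS1 was 13.7% at 2 UMIs or more, 9.29% at 5 or more and 11.6% at 500 UMIs per nucleus. Genes called higher and lower numbered 514 and 338 with SCS1 nuclei of at least 5 UMIs, 39 and 2 at equal cluster makeup, 46 and 18 at 500 UMIs per nucleus, 968 and 2009 with 20 UMIs and no detection filter, and 110 and 19 with detection in 25% of nuclei. The number of genes tested differs between these settings, so the counts are not shares. Lower calls numbered 63 without SCB1-alone nuclei that store an SCS1 entry of 0, and 65 as a mean over nuclei. Without sn0, an alternative chosen after seeing the data, 110 were higher and 37 lower. All 24 named genes called higher stayed above 1 under these alternatives. Most were named for high ratios or correlations in these same nuclei, so this is not independent support. The settings with 20 UMIs and with 25% detection change only which genes are called, not their ratios. At equal cluster makeup 16 of the 24 had a ratio of 2 or more, and 2 of the 15 named genes called lower one of 0.5 or less, which 9 of 15 had at 500 UMIs per nucleus. Of 15 called lower, SPL13 (Glyma.06G168600) crossed to 1.08 at equal cluster makeup and the other 14 stayed below 1. The largest cluster share of SCS1 UMIs was 73.9% at resolution 0.5, 63.7% at 1.5, 72.4% with SCS1 and SCB1 kept, and 68.2% without the highest Scrublet scores. Of the first 12 correlated genes, 5 were shared within sn0 and 3 over clusters. The causes were not tested. Depth limits genes with few UMIs, such as SWEET10a.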

Other observations

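Chosen after their values were seen, the lowest ratios within sn0 included Glyma.12G021200 (30.1 CPM in SCS1 nuclei and 135 CPM in SCB1-alone nuclei, ratio 0.224, 0.160 to 0.313) and the pectin lyase-like gene Glyma.08G285400 (25.6 and 106 CPM, ratio 0.241, 0.166 to 0.349). Pectin lyase-like proteins act on wall pectin. Glyma.17G258100 stood at 130 CPM in SCS1 nuclei and 3.54 CPM in SCB1-alone nuclei of sn0, the last from 2 UMIs (ratio 36.6, 10.0 to 303).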
